A study of Arabidopsis thaliana with 9 samples.

Results

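Class III peroxidases are a plant gene family of 73 loci in Arabidopsis thaliana, and 60 of them were described in 9 RNA-seq libraries of whole seedlings. The 60 members were chosen by locus identifier from a list of the family, with earlier results of these libraries known, and no limit on level or on change separates them from the 13 other loci. All 60 have a row in the deposited table of 27655 genes. To enter the test a gene needed an average of 1 TPM or more across all 9 libraries, which 44 members reached and 16 did not. TPM is a transcript level scaled by gene length and by the total of the library. Of the 13 other family loci, 4 reached that mean.

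Messenger RNA was taken from seedlings 10 days old, grown at 22 °C under a daily cycle of 16 h light and 8 h darkness. The 3 groups held 3 libraries each: wild type of the Col accession, the line h3.3ko;HTR5 G34R and the line h3.3ko;HTR5 G34W, written G34R and G34W from here on. Both lines carry the h3.3ko background, which affects genes for the histone variant H3.3, and an HTR5 gene for H3.3 whose glycine is replaced by arginine or by tryptophan. A line of the same background with the original HTR5 sequence was not analysed here, so background and substitution cannot be told apart in any difference from wild type. The libraries held 12889624 to 14730745 reads as recovered from the TPM, and a 1 kb gene with 3 reads would be listed at 0.422 to 0.495 TPM. Whether the replicates of a group were grown separately is not stated, so tests measure the spread between these libraries, which may be technical. The H3.3 gene HTR8, a check of the labels, was at 4.95 ± 0.975 TPM in G34R and 5.53 ± 1.05 TPM in G34W against 210.4 ± 3.79 TPM in wild type (SD, n = 3). HTR4, the second such gene, had means of 418 ± 17.1, 135 ± 2.60 and 159 ± 6.45 TPM for wild type, G34R and G34W. HTR5 had 333 ± 2.04, 357 ± 3.43 and 379.9 ± 11.1 TPM in the same order, and the sign of its small differences turned with median-ratio scaling of the libraries (-0.03 in both lines).

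Class III peroxidases are secreted haem enzymes that act in the plant cell wall. With hydrogen peroxide they oxidise phenolic alcohols, which then couple into lignin, and they cross-link structural wall proteins such as extensins. In another cycle they produce reactive oxygen, which can loosen the wall, and several are known for the oxidative burst after attack by pathogens. In roots they are known for the lignin of the Casparian strip, a barrier in the walls of the endodermis, and for the growth of root hairs.

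The family holds tandem copies, so the sequences decide how well reads can be assigned. PRXCA (AT3G49110) and PRXCB (AT3G49120), a pair of close copies, have coding sequences that are 90.42% identical, with 99 mismatches and a longest identical run of 111 bases. They are shown here because the order of their levels over the 3 groups differed. The first 90-base stretch below starts at coding base 73 of PRXCA and the second at coding base 70 of PRXCB. Capitals mark the 18 bases at which the copies differ (TAIR10.1 reference, plus strand of chromosome 3).
PRXCA: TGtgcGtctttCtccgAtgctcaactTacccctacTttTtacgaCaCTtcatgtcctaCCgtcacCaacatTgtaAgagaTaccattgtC
PRXCB: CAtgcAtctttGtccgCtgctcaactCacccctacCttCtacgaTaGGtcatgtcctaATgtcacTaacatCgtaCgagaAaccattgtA
Of all stretches of 75 bases in the exons of PRXCA, 3.861% occur elsewhere in the genome, and 3.997% of those of PRXCB do. For 52 of the 60 members no such stretch is repeated. The exceptions above 10% were AT1G05240 at 57.1% and AT1G05250 at 100%, whose coding sequences are 100% identical. How the authors' counting treated reads with several positions is not given in the sources used here.

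AT2G38380 and AT2G38390 lie next to each other on chromosome 2, 897 bases apart on the same strand. They are shown because they had the largest rises on the log2(TPM + 1) scale in G34R, and AT2G38390 also led in G34W. Their coding sequences are 90.57% identical. The 250 bases upstream of each annotated start are shown with the longest run common to both, 25 bases, in capitals (TAIR10.1).
AT2G38380 chr2:16076039-16076288 (plus strand): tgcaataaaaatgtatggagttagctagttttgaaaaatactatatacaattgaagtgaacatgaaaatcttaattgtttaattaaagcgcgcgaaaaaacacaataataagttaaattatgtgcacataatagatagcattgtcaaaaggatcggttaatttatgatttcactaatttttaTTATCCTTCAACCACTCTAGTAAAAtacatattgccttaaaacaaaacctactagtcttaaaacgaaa
AT2G38390 chr2:16079429-16079678 (plus strand): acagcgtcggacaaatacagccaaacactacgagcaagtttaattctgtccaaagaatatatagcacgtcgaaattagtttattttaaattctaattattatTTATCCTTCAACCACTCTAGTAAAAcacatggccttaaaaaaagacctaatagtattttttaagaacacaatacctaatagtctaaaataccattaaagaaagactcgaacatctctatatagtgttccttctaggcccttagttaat
The run lies 68 to 44 bases upstream of the AT2G38380 start and 148 to 124 bases upstream of the AT2G38390 start. Common runs as long or longer were found between the upstream windows of Prx37 and AT4G08780, with 31 bases, and of AT4G37520 and AT4G37530, with 32 bases.

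A motif named the root hair element, known from promoters of root hair genes and from binding of the factor RSL4, was searched in these windows on both strands. It matched in 3 of the 60 members (5%) and in 0.754% of the 27443 protein-coding genes with a window of that length. The 3 members are shown with the match in capitals. All 3 are among the members that rose in G34R, but 33 of the 60 members did so, and a link of the match to the level was not tested.
AT5G22410 RHS18 chr5:7426060-7426309 (plus strand): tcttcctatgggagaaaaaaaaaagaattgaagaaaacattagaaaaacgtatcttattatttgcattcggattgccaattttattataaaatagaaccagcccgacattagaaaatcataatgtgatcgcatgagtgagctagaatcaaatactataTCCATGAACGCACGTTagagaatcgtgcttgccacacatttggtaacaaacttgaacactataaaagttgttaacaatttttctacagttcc
AT2G35380 chr2:14892245-14892494 (plus strand): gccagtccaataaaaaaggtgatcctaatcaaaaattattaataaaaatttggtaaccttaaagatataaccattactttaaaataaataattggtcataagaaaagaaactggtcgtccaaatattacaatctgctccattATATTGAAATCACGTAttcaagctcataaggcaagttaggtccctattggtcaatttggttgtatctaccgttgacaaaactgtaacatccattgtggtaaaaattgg
AT3G01190 chr3:68666-68915 (minus strand): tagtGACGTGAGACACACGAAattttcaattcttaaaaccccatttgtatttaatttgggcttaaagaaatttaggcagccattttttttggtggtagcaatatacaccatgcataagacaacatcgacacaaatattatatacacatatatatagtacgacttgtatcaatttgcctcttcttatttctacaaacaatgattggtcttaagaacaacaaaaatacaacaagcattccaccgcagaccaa
Of the 7 members with a role in root hair growth 1 had a match, RHS18, and the window of RHS19, another root hair gene, had none. The W-box core TTGAC was found in 41.7% of the members' windows against 44.9% of all, the G-box CACGTG in 1.67% against 6.49%, ACCAACC in 3.33% against 2.69%, and ACCTACC in 0 of 60 against 1.16%. These matches describe letters in a window and no binding was measured.

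Most measured peroxidase genes were higher in both lines than in wild type. In G34R 33 of the 44 measured members were higher, 7 were lower and 4 did not pass the test (limma on log2(TPM + 1), Benjamini-Hochberg adjusted over 18544 genes, threshold 0.05). Over all genes tested, 34.6% were called higher and 16.5% lower in that comparison. In G34W 35 members were higher, 4 lower and 5 did not pass, against 44.8% higher and 13.1% lower over all genes. The median change of the members was 1.07 in G34R, where the median of all genes was 0.10, and 0.91 in G34W, where that of all genes was 0.21. Changes are differences on the log2(TPM + 1) scale, given with the SE, and this scale understates changes of weakly expressed genes.

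Median-ratio scaling of the libraries moved the median of all genes to -0.01 for G34R and 0.01 for G34W, and the members' medians were 0.95 and 0.72. The split of all calls then became 25.2% higher and 26.5% lower in G34R and 24.3% higher and 24.3% lower in G34W. The members were then 33 higher and 7 lower in G34R, and 32 higher and 7 lower in G34W. Because the family was put forward with these same contrasts in view, the differences from wild type are a description of which members differed and by how much, and a p-value is given only where leaving out a library ended a call. Both lines were compared with the same wild-type libraries.

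**Figure D1:**
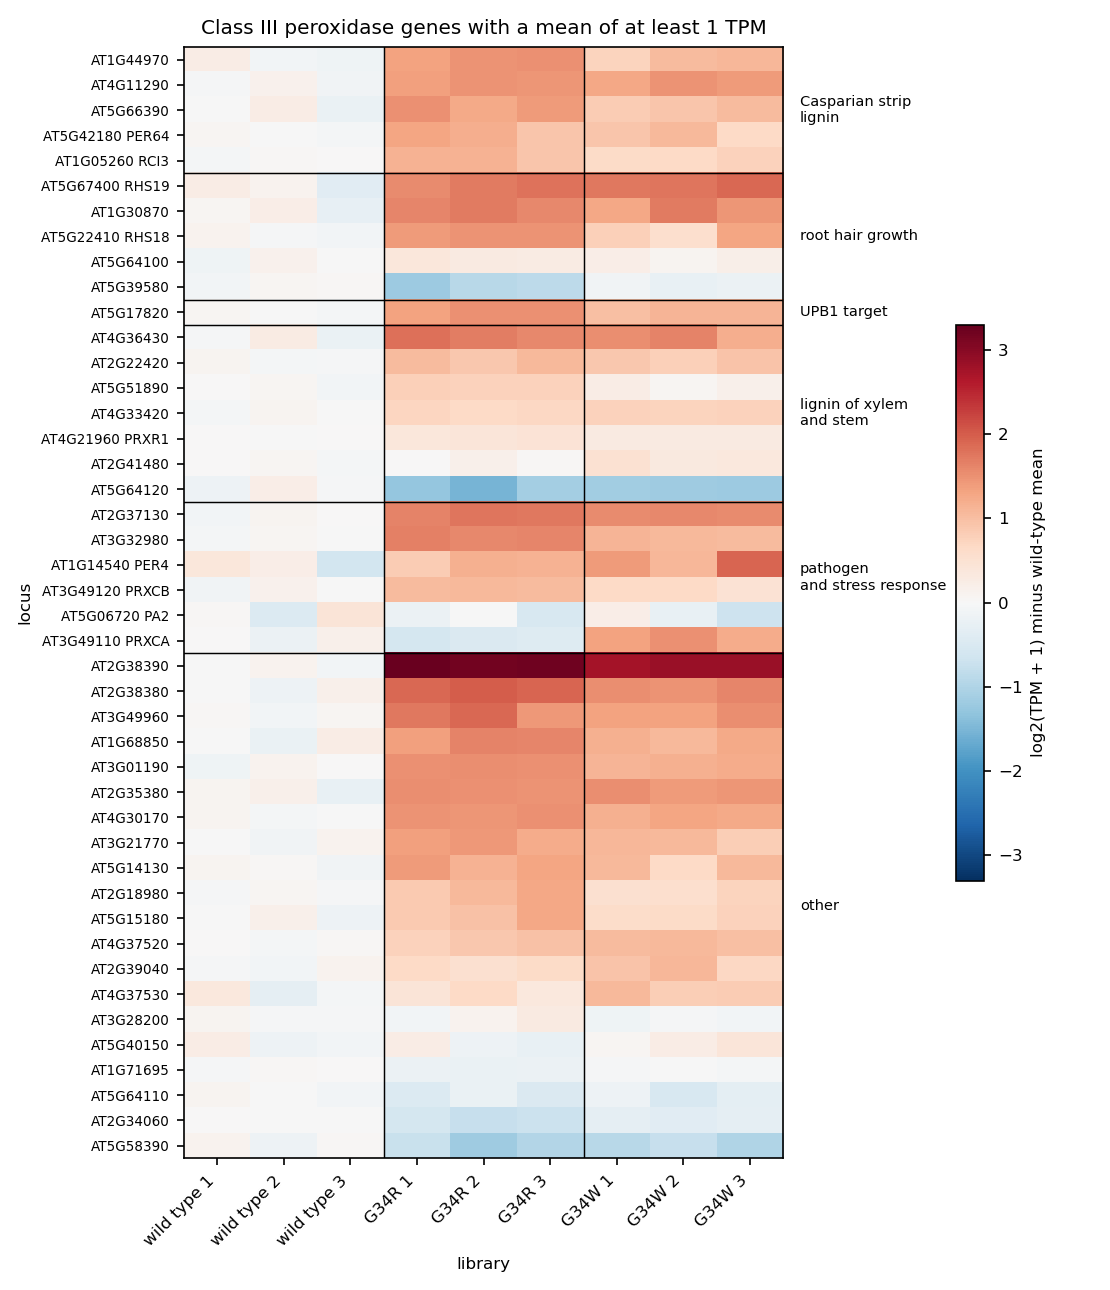
Each row is 1 of the 44 measured members, grouped by role, and each column 1 of the 9 libraries. Colour gives log2(TPM + 1) minus the wild-type mean of that gene, and 33 members were called higher and 7 lower in G34R.

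The summed level of the 60 members was 1405 to 1429 TPM in the wild-type libraries, 2342 to 2407 in G34R and 2092 to 2110 in G34W. The groups did not overlap, and G34W lay between the other groups. PRXR1 (AT4G21960), the most abundant member, held 44.0% of that sum in wild type, 34.7% in G34R and 36.3% in G34W. Without it the sum was 791 ± 20.0 TPM in the wild-type libraries, 1552 ± 9.65 in G34R and 1338 ± 5.15 in G34W (SD, n = 3), which is 1.96 times and 1.69 times the wild-type sum. By mean level over the 9 libraries, 12 measured members were at 50 TPM or more, 15 between 10 and 50 TPM and 17 under 10 TPM. The median coefficient of variation of a measured member within a group was 9.43% in wild type, 7.62% in G34R and 6.90% in G34W.

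The 5 peroxidases of the Casparian strip rose together. All 5 were measured, and 5 of 5 were called higher in each line, against 34.6% (G34R) and 44.8% (G34W) of all genes tested. The summed level of the 5 members was 53.8 to 61.6 TPM in the wild-type libraries, 133 to 149.7 in G34R and 104 to 111 in G34W. The fold over the wild-type mean was 2.46 in G34R and 1.89 in G34W.

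PER64 (AT5G42180), which is held at the Casparian strip by the CASP scaffold proteins and polymerises its lignin, had 10.6, 10.0 and 9.65 TPM for wild type, 26.3, 24.4 and 20.0 for G34R and 19.8, 22.1 and 16.5 for G34W. The 3 wild-type libraries were the lowest and the lines overlapped each other. It rose by 1.14 ± 0.11 in G34R and by 0.88 ± 0.11 in G34W. RCI3 (AT1G05260), first known as a cold-induced gene, had 23.5, 25.3 and 24.5 TPM for wild type, 55.3, 55.7 and 47.3 for G34R and 38.6, 39.3 and 42 for G34W. The 3 groups were apart in the order wild type, G34W, G34R, and its changes were 1.08 ± 0.07 and 0.69 ± 0.07.

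AT5G66390, also annotated as PRX72, had 17, 20.5 and 14.7 TPM for wild type, 51, 42.1 and 47.1 for G34R and 31.5, 33.2 and 36.6 for G34W. It had the same order of groups, with no overlap and changes of 1.39 ± 0.10 and 0.93 ± 0.10. AT1G44970 had 3.07, 2.23 and 2.14 TPM for wild type, 7.6, 8.71 and 8.77 for G34R and 4.72, 6.18 and 6.36 for G34W, again with G34W in the middle. It rose by 1.43 ± 0.14 in G34R and by 0.96 ± 0.14 in G34W.
AT4G11290, a target of the root regulator UPB1 as well as a Casparian strip gene, had 3.05, 3.58 and 2.81 TPM for wild type, 9.55, 10.5 and 10.3 for G34R and 9.03, 10.6 and 10.0 for G34W. Its levels in the lines overlapped, and it rose by 1.43 ± 0.11 and 1.39 ± 0.11. AT5G17820, another UPB1 target, which acts where root cells leave the meristem and elongate, had 19.7, 18.4 and 18 TPM for wild type, 48.4, 54.6 and 55.5 for G34R and 38.3, 41.5 and 41.5 for G34W. It rose by 1.45 ± 0.07 in G34R and 1.07 ± 0.07 in G34W, with the groups apart.

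Among the 7 peroxidases of root hair growth, 5 were measured. In G34R 4 rose and 1 fell, and in G34W 4 rose and 1 did not pass. The shares of all genes tested were 34.6% higher and 16.5% lower in G34R, and 44.8% higher and 13.1% lower in G34W. RHS19 (AT5G67400), which acts on extensins in the root hair wall, had 3.0, 2.61 and 1.6 TPM for wild type, 8.89, 9.91 and 10.6 for G34R and 10.3, 10.3 and 11.4 for G34W. All line libraries were above all wild-type libraries, with changes of 1.69 ± 0.15 and 1.8 ± 0.15. RHS18 (AT5G22410), whose upstream window is printed above, had 1.65, 1.4 and 1.29 TPM for wild type, 5.44, 5.79 and 5.83 for G34R and 3.17, 2.6 and 4.99 for G34W. It rose by 1.45 ± 0.17 in G34R and by 0.88 ± 0.17 in G34W.

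AT1G30870, expressed in root hairs, had 5.3, 5.96 and 3.99 TPM for wild type, 17.3, 18.8 and 17.2 for G34R and 13.5, 18.8 and 15.4 for G34W. The lines overlapped and both lay above wild type, at 1.64 ± 0.13 and 1.48 ± 0.13. AT5G64100 and AT5G39580 are a pair that act together in root hair growth at low temperature, and they moved apart here. AT5G64100 had 55.7, 67.9 and 60.6 TPM for wild type, 78.9, 76 and 74.2 for G34R and 71.7, 65.2 and 69.7 for G34W. It rose by 0.31 ± 0.06 in G34R, and its G34W change of 0.17 ± 0.06, where the libraries overlapped wild type, turned to -0.05 with median-ratio scaling. That G34W call was also lost without wild type replicate 1 or 3 or G34W replicate 1 or 3, with a change of 0.10 without wild type replicate 1 (limma, adjusted p = 0.196).

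AT5G39580 had 7.5, 8.51 and 8.3 TPM for wild type, 2.98, 3.83 and 4.01 for G34R and 7.44, 6.68 and 6.99 for G34W. Every G34R library was below every other library, while G34W lay just under wild type. It fell by 0.99 ± 0.12 in G34R, and the G34W value of -0.18 ± 0.12 did not pass the test. The 2 members of this group that were not measured at 1 TPM were AT4G26010, a root hair peroxidase with 2, 1 and 0 reads across the wild-type libraries, 6, 4 and 14 in G34R and 4, 7 and 11 in G34W, and AT1G05240, which shares its coding sequence with AT1G05250. AT1G05240 had 4 reads in all of wild type, 8 in G34R and 2 in G34W.

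Markers of root cell types were also higher in the lines, and in RNA of whole seedlings more cells of a type and more RNA per cell cannot be told apart. Of 8 root hair markers 7 were measured and 7 rose in each line, and their summed level was 15.3 to 17.9 TPM in the wild-type libraries, 56.7 to 69.8 in G34R and 45.5 to 51.0 in G34W. PRP3, a wall protein of root hairs, had means of 6.73, 26.4 and 18.5 TPM in wild type, G34R and G34W, and the expansin EXP7 had 2.68, 8.90 and 8.86 TPM. Of 8 root endodermis markers 7 were measured, of which 6 rose and 1 fell in G34R, and 6 rose and 1 did not pass in G34W. Their sum was 71.7 to 77.3 TPM in the wild-type libraries, 129 to 143 in G34R and 123 to 129 in G34W. CASP1, a scaffold protein of the Casparian strip, had means of 19.6, 53.9 and 44.9 TPM for wild type, G34R and G34W. Of 8 xylem markers 7 were measured, with 6 called higher in G34R and 7 in G34W, and a sum of 117 to 127 TPM in the wild-type libraries, 207 to 208 in G34R and 181 to 185 in G34W. The 10 shoot photosynthesis markers summed to 70010.0 to 71162 TPM in the wild-type libraries, 65649 to 70463 in G34R and 65037 to 66235 in G34W. In that list 5 fell, 1 rose and 4 did not pass in G34R, and 7 fell, 1 rose and 2 did not pass in G34W. Over all genes tested, 34.6% rose and 16.5% fell in G34R, and 44.8% rose and 13.1% fell in G34W. No defining marker of these 4 lists was at 0 in all libraries, and the part of these shifts in the peroxidase levels was not tested.

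**Figure D2:**
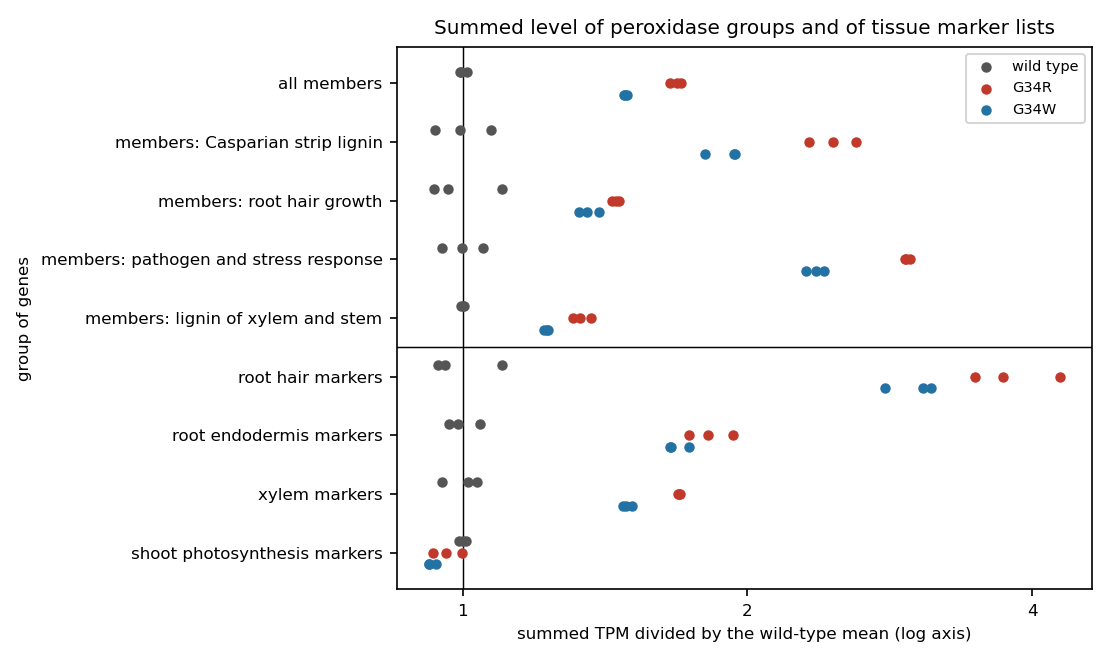
Each point is 1 library, and the x axis gives the summed TPM of a group of genes divided by its wild-type mean, on a log axis. The sum over all 60 members was 1.68 times wild type in G34R and 1.49 times in G34W, that of the root hair markers 3.83 and 2.997 times, and that of the shoot markers 0.963 and 0.927 times.

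Reference annotation names the plant parts in which a gene is expressed, a description made independently of these libraries. For comparison with the counts of each class, 34.6% of all genes tested rose and 16.5% fell in G34R, and 44.8% and 13.1% in G34W. Of the 60 members 6 are annotated for the root alone, 4 of them were measured, and 4 of 4 rose in each line. Their summed level was 23.5 to 29.0 TPM in the wild-type libraries, 127 to 131 in G34R and 107 to 115 in G34W, a fold of 5.02 and 4.30. Most of that sum in the lines was AT2G38390, and without it the other 5 members had folds of 2.14 and 2.42. The G34R calls of AT2G39040 and AT4G37530 ended with quantile normalization, at changes of 0.37 and 0.34, and the G34R libraries of AT4G37530 overlapped wild type. Of the 21 members annotated for the root and other named parts 17 were measured. In G34R 14 of those rose and 2 fell, and in G34W 16 rose and 1 fell. The 26 members annotated for many structures, 19 of them measured, gave 12 rises and 4 falls in G34R and 12 rises and 2 falls in G34W. Their sum was 1.40 times wild type in G34R and 1.28 times in G34W, and that of the 21 members was 2.29 and 1.90 times. The 3 members whose annotation names no root had a sum of 2.73 and 1.91 times wild type, most of it AT3G32980, which rose in both lines, while AT5G64110 fell. In the 4 members with no such annotation the sum was 1.98 and 2.15 times wild type. The median change in G34R was 1.12 for the measured root-alone members, 1.39 for those of the root and other parts and 0.77 for those of many structures.

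Of the members with a role in lignin of xylem and stem, most that were measured rose and 1 fell in each line. Of 8 such members 7 were measured: 5 rose, 1 fell and 1 did not pass in G34R, and 6 rose and 1 fell in G34W. The shares of all genes tested were 34.6% higher and 16.5% lower in G34R, and 44.8% higher and 13.1% lower in G34W. PRXR1 had 625, 615 and 629 TPM for wild type, 801, 827 and 848 for G34R and 759.7, 762 and 767 for G34W. The groups did not overlap, and the rises were small, at 0.41 ± 0.03 and 0.29 ± 0.03. AT4G36430 had 1.17, 1.7 and 0.925 TPM for wild type, 6.92, 6.17 and 5.77 for G34R and 5.55, 5.99 and 4.17 for G34W. Both lines lay well above wild type, by 1.7 ± 0.16 and 1.46 ± 0.16.

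AT5G51890, expressed in developing vessels, had 40.4, 41.2 and 37.5 TPM for wild type, 69.2, 68.1 and 67.5 for G34R and 47.4, 41.7 and 44.6 for G34W. G34R stood apart, while G34W was barely above wild type. It rose by 0.77 ± 0.06 in G34R, and its G34W change of 0.16 ± 0.06 turned to -0.05 with median-ratio scaling. That G34W call was also lost without wild type replicate 3 or G34W replicate 1 or 3 (limma, adjusted p = 0.115, 0.128 and 0.0586). AT4G33420, another vessel peroxidase, rose by 0.68 ± 0.05 and 0.76 ± 0.05, and AT2G22420 by 1.0 ± 0.08 and 0.87 ± 0.08. AT2G41480, also annotated as PRX25, had 0.08 ± 0.12 in G34R, which did not pass, and rose by 0.39 ± 0.12 in G34W, a call that ended with median-ratio scaling and without G34W replicate 1 (limma, adjusted p = 0.0591).

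AT5G64120, also annotated as PRX71, had the largest fall of the family. It had 32.8, 43.2 and 36 TPM for wild type, 14.6, 12.2 and 16.4 for G34R and 16.3, 15.9 and 15.5 for G34W. All 6 line libraries were below all wild-type libraries and the lines overlapped. The change was -1.31 ± 0.11 in G34R and -1.17 ± 0.11 in G34W. It is the outer gene of a row of 3 members on the minus strand of chromosome 5, AT5G64100 (chr5:25650567-25652247), AT5G64110 (chr5:25654074-25656067) and AT5G64120 (chr5:25659257-25661007, TAIR10.1).

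The 3 neighbours went in different directions, since AT5G64100 rose in G34R and the other 2 fell. AT5G64110 had 10.2, 9.6 and 9.03 TPM for wild type, 6.71, 8.14 and 6.63 for G34R and 8.5, 6.4 and 7.44 for G34W. The lines were below wild type in every library, by a change of -0.38 ± 0.12 in G34R and -0.34 ± 0.12 in G34W, and neither call held without wild type replicate 1 (limma, adjusted p = 0.0524 and 0.083). The G34W call was also lost without wild type replicate 2 or G34W replicate 2 or 3 (limma, adjusted p up to 0.123). The coding sequences of the neighbours are 69.4% and 62.3% identical. Over the whole family 11 pairs of members are next to each other in the annotation, 7 of them on the same strand, and these pairs hold 20 members.

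Peroxidases of the pathogen and stress response had the highest fold of the summed level among the role groups with more than 1 member. The 10 members summed to 107 to 118 TPM in the wild-type libraries, 331 to 336 in G34R and 260.4 to 272 in G34W, a fold of 2.95 and 2.36. Of the 6 measured, 4 rose, 1 fell and 1 did not pass in G34R, and 5 rose and 1 did not pass in G34W. Of all genes tested, 34.6% rose and 16.5% fell in G34R, and 44.8% rose and 13.1% fell in G34W. Most of the summed level in wild type and in both lines was AT3G32980 and AT2G37130, and the fold without them was not computed. The median change of the measured members was 1.06 in G34R and 1.22 in G34W, and that of the Casparian strip members was 1.39 and 0.93. AT3G32980 had 47.6, 51.8 and 49 TPM for wild type, 159, 151 and 152 for G34R and 109, 104 and 103 for G34W. The groups did not overlap, and it rose by 1.62 ± 0.05 and 1.08 ± 0.05. AT2G37130 had 35.5, 40.3 and 38.4 TPM for wild type, 120.4, 131 and 129 for G34R and 115, 117 and 113 for G34W. Wild type was far below both lines, with changes of 1.71 ± 0.05 and 1.57 ± 0.05.

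PRXCA and PRXCB encode the enzymes known for much of the hydrogen peroxide burst that follows recognition of a pathogen. PRXCB had 18.7, 22.8 and 20.4 TPM for wild type, 43.7, 44.5 and 43.3 for G34R and 33.3, 33 and 28.9 for G34W. It rose by 1.06 ± 0.08 in G34R and by 0.6 ± 0.08 in G34W, with the groups apart. PRXCA, at a lower level, had 1.62, 1.29 and 1.94 TPM for wild type, 0.736, 0.881 and 0.943 for G34R and 5.54, 6.37 and 5.08 for G34W. Here the 3 groups were apart in another order, with G34R lowest and G34W highest. PRXCA had a change of -0.49 ± 0.16 in G34R and rose by 1.35 ± 0.16 in G34W. The fall in G34R missed the threshold without wild type replicate 3 (limma, adjusted p = 0.0758), while the G34W rise kept its call in each alternative tried.

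PER4 (AT1G14540), a stress-induced peroxidase, had 1.33, 1.08 and 0.181 TPM for wild type, 2.17, 3.06 and 3.0 for G34R and 3.74, 2.84 and 5.71 for G34W. The lines were above wild type in every library, by 1.06 ± 0.25 and 1.47 ± 0.25, but the wild-type levels of PER4 rest on 14, 11 and 2 reads. PA2 (AT5G06720) ranged from 0.376 to 1.97 TPM over all libraries and passed neither test, with -0.24 ± 0.26 in both lines. AT1G14550, the neighbour of PER4, was listed at 0 in the 3 wild-type libraries and had 2, 8 and 3 reads in G34R and 9, 5 and 8 in G34W. Prx37 (AT4G08770) had 4, 4 and 4 reads across the wild-type libraries, 34, 10 and 24 in G34R and 21, 13 and 26 in G34W, below the level of the test. Its close copy AT4G08780, at 93.8% coding identity, had 11, 5 and 4 reads across the wild-type libraries, 24, 21 and 24 in G34R and 14, 16 and 23 in G34W.

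**Figure D3:**
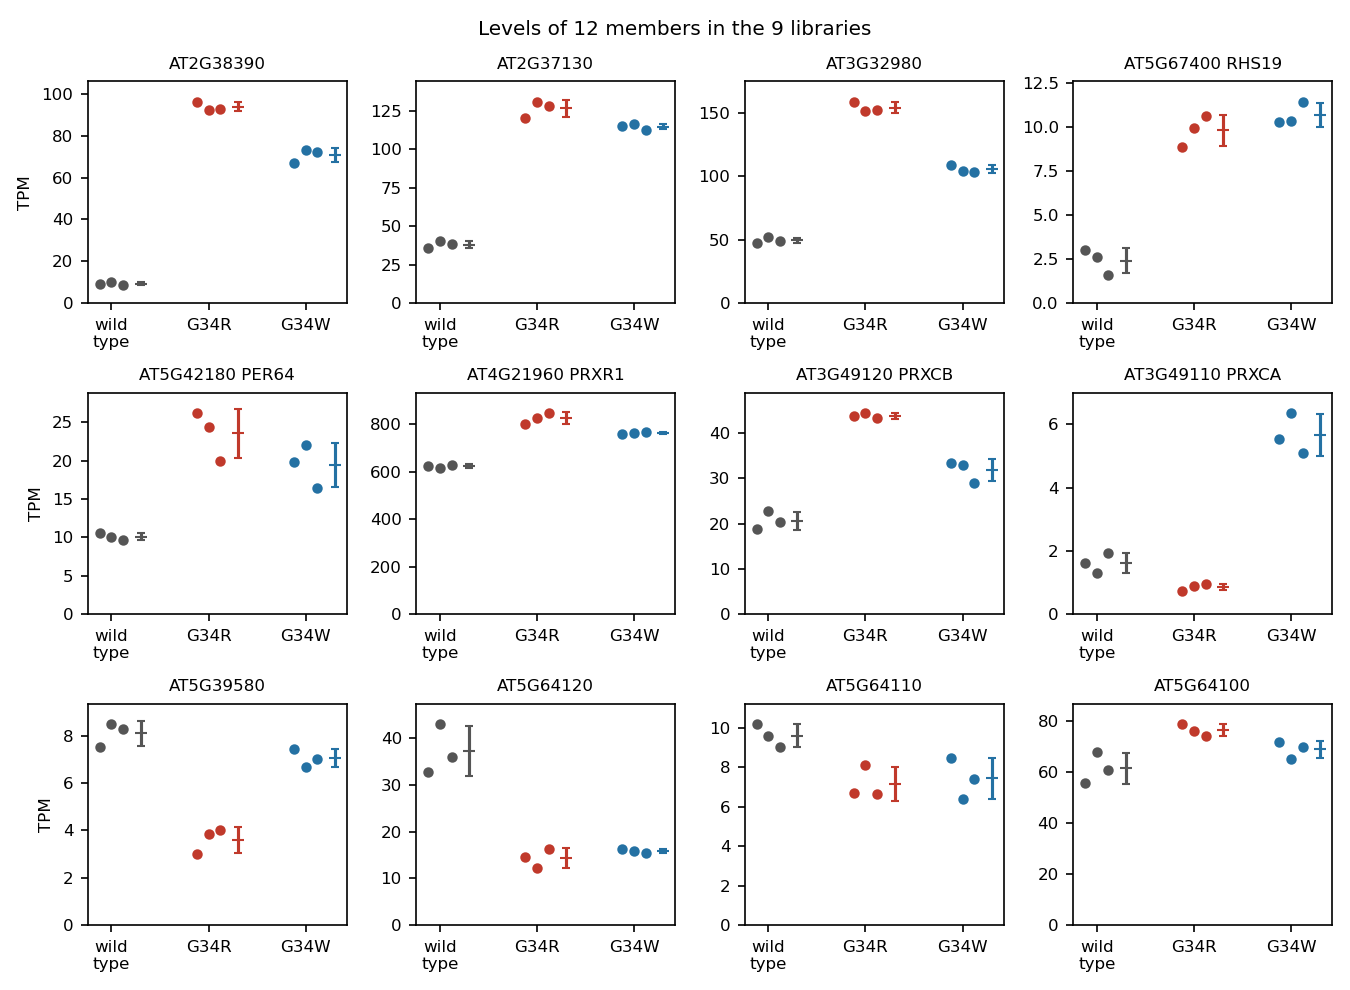
TPM of 12 members in the 9 libraries, 1 point a library, with the mean and SD of the 3 libraries of a group beside the points. AT2G38390 was at 8.57 to 10.0 TPM in wild type and 92.5 to 96.4 TPM in G34R, while PRXCA was lowest in G34R and highest in G34W.

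The members without a role in these groups include the gene with the largest rise. Of 29 such members 20 were measured: 14 rose, 4 fell and 2 did not pass in G34R, and 14 rose, 3 fell and 3 did not pass in G34W. Among all genes tested, 34.6% rose and 16.5% fell in G34R, and 44.8% rose and 13.1% fell in G34W. AT2G38390 had 9.1, 10.0 and 8.57 TPM for wild type, 96.4, 92.5 and 92.7 for G34R and 67.1, 73 and 72.4 for G34W. Its mean TPM was 10.2 times wild type in G34R and 7.68 times in G34W, with changes of 3.21 ± 0.06 and 2.81 ± 0.06. Its neighbour AT2G38380 had 14.6, 13 and 16.7 TPM for wild type, 57.7, 61.3 and 58.2 for G34R and 44.5, 43.1 and 46.9 for G34W. It rose by 1.94 ± 0.08 and 1.55 ± 0.08, so both genes of the pair were in the order wild type, G34W, G34R without overlap.

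AT3G49960 had 1.88, 1.64 and 1.96 TPM for wild type, 8.4, 9.58 and 6.61 for G34R and 6.06, 6.06 and 7.16 for G34W. The lines lay above wild type, by 1.69 ± 0.14 and 1.39 ± 0.14. AT2G35380, which has a root hair element in its window, had 8.14, 8.7 and 6.31 TPM for wild type, 23.9, 23.4 and 23.3 for G34R and 24.1, 21.8 and 22.7 for G34W. It rose by 1.5 ± 0.10 and 1.46 ± 0.10, with both lines above wild type. AT3G01190, the third gene with that element, rose by 1.52 ± 0.06 and 1.18 ± 0.06. AT4G30170, AT1G68850 and AT3G21770 rose by 1.48, 1.54 and 1.34 in G34R and by 1.24, 1.16 and 0.99 in G34W.

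AT1G71695 and AT3G28200 are abundant members with small differences from wild type. AT1G71695 had 93.9, 99.9 and 97.5 TPM for wild type, 84.7, 83.2 and 85.1 for G34R and 93.7, 95.8 and 93.3 for G34W. G34R was the lowest group, with a change of -0.20 ± 0.04, and the G34W value of -0.04 ± 0.04 did not pass. AT3G28200 had 78.9, 71.4 and 71.2 TPM for wild type, 69.6, 80.6 and 90.5 for G34R and 66.5, 72.4 and 69.8 for G34W. The 3 groups overlapped, and neither 0.11 ± 0.07 in G34R nor -0.08 ± 0.07 in G34W passed the test. AT5G40150 passed in neither line, with -0.06 ± 0.15 and 0.23 ± 0.15.

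AT5G58390 had 7.22, 5.8 and 6.86 TPM for wild type, 3.57, 2.36 and 2.92 for G34R and 3.02, 3.46 and 2.84 for G34W. Both lines were below wild type in every library, at -0.96 ± 0.15 and -0.89 ± 0.15. AT2G34060 had 12.4, 12.2 and 12 TPM for wild type, 7.88, 6.81 and 7.01 for G34R and 9.72, 9.09 and 9.83 for G34W. It was lowest in G34R, with a change of -0.68 ± 0.10 there and of -0.32 ± 0.10 in G34W. AT5G19880, a member under the level of the test, had 7, 3 and 5 reads across the wild-type libraries, 0, 0 and 4 in G34R and was listed at 0 in the 3 G34W libraries. AT1G24110 and AT4G17690 were listed at 0 in all 9 libraries.

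**Figure D4:**
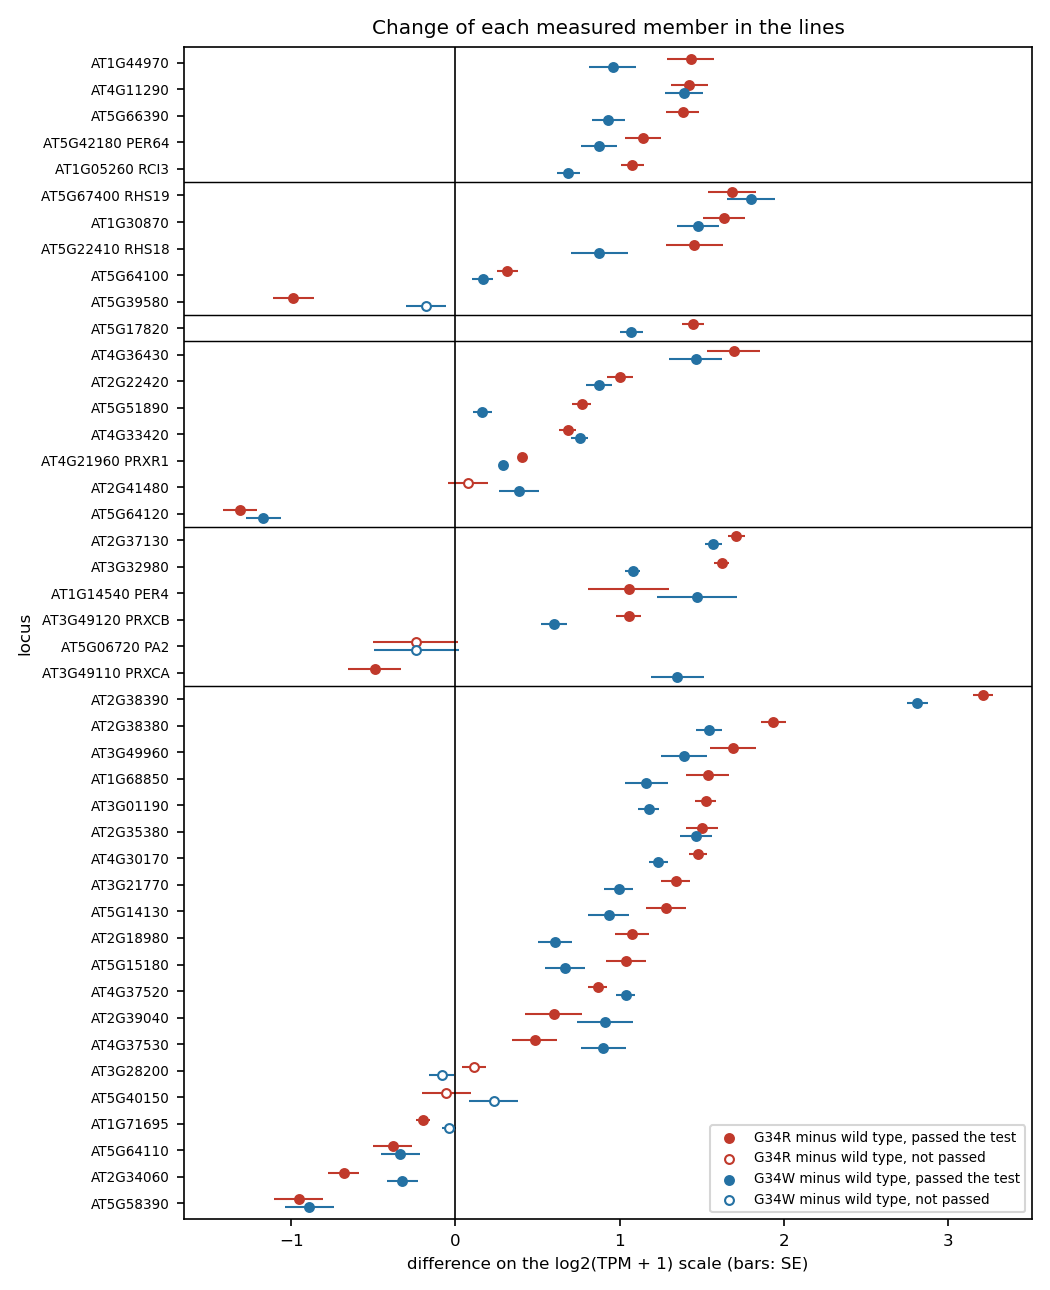
Difference from wild type on the log2(TPM + 1) scale for each of the 44 measured members, with the SE as bars, G34R in red and G34W in blue. Filled points passed the test, and AT2G38390 has the largest rise and AT5G64120 the largest fall in both lines.

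The lines were also compared with each other, which asks whether the arginine and the tryptophan line differ in peroxidase transcripts. The members were chosen with earlier results of these libraries known, so the differences between the lines and their adjusted p-values are also a description. In G34W 6 of the 44 members were higher than in G34R, 18 were lower and 20 did not pass, against 21.5% of all genes called higher and 11.8% lower. The median difference of the members was -0.15, and that of all genes was 0.07. With median-ratio scaling 3 members were higher and 23 lower, and with it 13.4% of all genes were higher and 17.5% lower. The largest difference was that of PRXCA, 1.84 ± 0.16 higher in G34W (limma, Benjamini-Hochberg adjusted p = 2.49e-07), a 6.64-fold ratio of mean TPM. PRXCA had 14, 16 and 17 reads in the G34R libraries and 99, 107 and 89 in the G34W libraries. AT5G39580 was 0.81 ± 0.12 higher in G34W (limma, adjusted p = 9.31e-05), and every G34W library was above every G34R library for both genes.

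AT5G51890 was lower in G34W by a difference of -0.6 ± 0.06 (limma, adjusted p = 8.17e-07). AT3G32980 differed by -0.54 ± 0.05 (limma, adjusted p = 2.06e-07). RHS18 differed by -0.58 ± 0.17 (limma, adjusted p = 0.0168), and its call was lost without G34R replicate 2 or G34W replicate 1 or 2 (adjusted p up to 0.095). Of the 5 Casparian strip members 3 were lower in G34W, namely RCI3 at -0.39 ± 0.07, AT5G66390 at -0.46 ± 0.10 and AT1G44970 at -0.48 ± 0.14, the last of which missed the threshold when G34R replicate 2 or G34W replicate 1 was left out (limma, adjusted p = 0.061 and 0.0921). The other 2, PER64 at -0.26 ± 0.11 and AT4G11290 at -0.03 ± 0.11, did not pass. Higher in G34W besides PRXCA and AT5G39580 were AT2G34060, AT4G37520, AT4G37530 and AT1G71695, by 0.36, 0.17, 0.42 and 0.16, and median-ratio scaling ended the calls of the last 3. The call of AT4G37520 was also lost without replicate 1 or 2 of either line (limma, adjusted p up to 0.149), and that of AT4G37530 without G34R replicate 1 or 3 or G34W replicate 1 (limma, adjusted p up to 0.114).

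Genes that supply or compete with these enzymes were listed beside them. For comparison with each list, 34.6% of all genes tested were higher and 16.5% lower in G34R, and 44.8% and 13.1% in G34W. NADPH oxidases make the superoxide from which the wall's hydrogen peroxide comes: of 10 genes 6 were measured, and 5 rose and 1 did not pass in each line. RBOHC, the oxidase of root hair growth, went from 1.30 ± 0.264 TPM in wild type to 4.67 ± 0.174 TPM in G34R and 3.29 ± 0.322 TPM in G34W. RBOHG, RBOHB and RBOHF, an oxidase of Casparian strip lignin and stress signalling in the last case, rose by 1.31, 0.73 and 0.67 in G34R and by 1.32, 1.001 and 0.67 in G34W. Of 7 superoxide dismutases, which make hydrogen peroxide from superoxide, 4 rose, 1 fell and 2 did not pass in G34R, and 5 rose, 1 fell and 1 did not pass in G34W. CSD2, the chloroplast copper enzyme, had changes of -0.81 and -0.12, and the iron enzyme FSD1, the manganese enzyme MSD1 and FSD3 rose by 0.31, 0.55 and 0.23 in G34R and by 0.41, 0.59 and 0.64 in G34W.

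Laccases, copper enzymes that also polymerise lignin, were listed too. Of 17 laccases 12 were measured: 8 rose, 1 fell and 3 did not pass in G34R, and 9 rose and 3 did not pass in G34W. LAC7 went from 15.01 ± 1.37 TPM to 48.0 ± 1.32 TPM in G34R and 35.1 ± 2.83 TPM in G34W. LAC3, a laccase of the Casparian strip, rose by 1.38 and 1.09, LAC5 by 1.30 and 0.88, and LAC11, a laccase of vessel lignin, by 0.95 and 0.72.

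Genes for monolignols, the substrates of lignin, went both ways. Of 17 genes, all measured, 6 rose, 9 fell and 2 did not pass in G34R, and 8 rose, 4 fell and 5 did not pass in G34W. PAL2, at the entry of the pathway, went from 267 ± 3.59 TPM to 133 ± 4.67 TPM in G34R and 208 ± 7.06 TPM in G34W. FAH1, HCT and 4CL1 had changes of -0.97, -0.66 and -0.69 in G34R and of -0.31, -0.36 and -0.26 in G34W. The genes named here, taken by smallest adjusted p, all fell, while the largest rises of the list were 0.999 in G34R and 0.85 in G34W. The summed level of the 17 genes was 0.856 times wild type in G34R and 1.05 times in G34W. Between the lines 14 of the 17 were higher in G34W, 2 lower and 1 did not pass, against 21.5% higher and 11.8% lower over all genes.

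Peroxidases and catalases inside the cell form another set, which removes hydrogen peroxide. Of 19 genes 17 were measured: 10 rose, 4 fell and 3 did not pass in G34R, and 9 rose, 5 fell and 3 did not pass in G34W. Over all genes tested, 34.6% rose and 16.5% fell in G34R, and 44.8% rose and 13.1% fell in G34W. The cytosolic ascorbate peroxidase gene APX1 went from 226 ± 10.9 TPM to 436 ± 22.3 TPM in G34R and 449 ± 5.83 TPM in G34W. The glutathione peroxidase-like genes GPX6 and GPX8 rose by 1.08 and 1.02 in G34R and by 0.62 and 1.09 in G34W, and GPX1 of the chloroplast had changes of -0.29 and -0.67. The summed level of this set was 1.001 times wild type in G34R and 0.993 times in G34W.

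Regulators of peroxidase genes are mostly weakly expressed. Of 9 such genes 7 were measured: 6 rose and 1 fell in G34R, and 5 rose, 1 fell and 1 did not pass in G34W. UPB1, a repressor of peroxidase genes at the base of the root meristem, went from 1.72 ± 0.488 TPM to 6.75 ± 1.13 TPM in G34R and 4.38 ± 0.903 TPM in G34W. RSL2 and RSL4, activators of root hair growth, rose by 1.27 and 1.17 in G34R and by 0.90 and 0.85 in G34W. KUA1, a repressor of peroxidase genes in growing leaves, had changes of -0.33 and -0.27.

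The read counter's use of strand is not given in the sources used here. Whether reads of overlapping genes were told apart is therefore not known. Of the members 9 overlap a neighbouring gene of the table in the TAIR10.1 annotation: AT1G30870, AT4G08780, AT4G26010, AT4G33420, AT5G14130, AT5G40150, PER64, AT5G51890 and RHS19. Of the 4 measured family loci that are no members, AT1G34510, AT2G18150 and AT4G16270 rose in each line, by 2.08, 2.29 and 1.09 in G34R and by 1.33, 1.47 and 0.67 in G34W, and AT3G17070 had changes of -0.66 and -0.70.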

How the data were processed

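RNA-seq of 9 seedling libraries was used, 3 per group, grouped by their titles. The values are TPM that the authors computed and deposited, and the gene names carry Araport11. The submitters' processing notes name the tools HISAT2 2.1.10, fastp 0.20.1 and DESeq2 1.26.0 and the build TAIR10. The read counter is not given in the sources used here. In each library the TPM matched whole reads divided by the gene span in TAIR10.1, introns included, for 99.98% of genes above 0, so genes with long introns get lower TPM.

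A gene entered the test when its average was 1 TPM or more, which 18544 genes reached. The test was limma 3.58.1 (R 4.3.3) on values of log2(TPM + 1). A single model held the 3 groups, with variances moderated along a trend, and its two-sided p-values were adjusted over all tested genes (Benjamini-Hochberg, threshold 0.05). The fit was tested on simulated data. Sequences came from the RefSeq TAIR10.1 assembly, read with Python 3.11.15 and aligned with Biopython 1.88. Copies were searched with windows of 75 bases and motifs in 250 bases upstream of the annotated start.

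Alternatives were a pseudocount of 0.1 TPM, no filter, median-ratio scaling, quantile normalization, a replicate block and leaving out each library. Any member could be named. Values in every library were given for the members with the largest called changes (up to 8 rises and 6 falls in each comparison with wild type, 4 between the lines), the 5 with the highest mean, and the measured Casparian strip and root hair members. Up to 4 called genes per list were named, taken by smallest adjusted p against wild type. The members, role groups and lists were chosen with earlier results of these data known.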

Additional observations from a re-analysis of the deposited data

Results flagged for a closer look

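For 3 members the effect against wild type differed between the lines by a test of the difference itself (G34W minus G34R, limma with Benjamini-Hochberg adjustment), and the comparisons with wild type were called differently. For PRXCA (AT3G49110) the difference was 1.84 (adjusted p = 2.49e-07), with a fall in G34R and a rise in G34W. For AT5G39580 it was 0.81 (adjusted p = 9.31e-05), with a fall in G34R and no call in G34W. For AT1G71695 it was 0.16 (adjusted p = 0.00857), with a small fall in G34R and no call in G34W, and median-ratio scaling reduced it to 0.07 (adjusted p = 0.25). For each of the 3 genes all 3 G34W libraries were above all 3 G34R libraries. The adjusted p-values are a description here too, since the members were chosen with earlier results of these libraries known.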

How the results depend on the processing

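The count of members called higher in G34R was 31 to 39 over the alternatives, the count called lower there 6 to 8, and the count called higher in G34W 32 to 38. The upper ends came without the filter, among 58 tested members instead of 44. Over all genes 28.5% were then higher in G34R and 36.0% in G34W, against 34.6% and 44.8% as deposited. Of members called lower in G34W there were 4 as deposited and 7 with median-ratio scaling or quantile normalization, and of members higher in G34W than in G34R 6 as deposited and 3 with median-ratio scaling. The share of all genes lower in G34W was 13.1% as deposited, 24.3% with median-ratio scaling and 22.8% with quantile normalization. That of all genes higher in G34W than in G34R was 21.5% as deposited and 13.4% with median-ratio scaling. Leaving out 1 library gave 33 to 34 and 6 to 7 members higher and lower in G34R, 32 to 36 and 3 to 4 in G34W, and 4 to 6 and 14 to 19 between the lines. Of all genes 31.0% to 34.2% were then higher and 14.3% to 18.3% lower in G34R. In G34W these shares were 40.0% to 45.9% and 11.8% to 13.5%, and between the lines 16.8% to 23.9% and 9.54% to 11.8%. Without any filter 58 members could be tested. Replicate numbers did not pair the samples (correlations of same-numbered deviations of -0.02 to 0.04 in 9 pairs), and with the replicate block the counts were 33 and 7 in G34R, 35 and 4 in G34W, and 6 and 20 between the lines. With the block the shares of all genes were 34.8% and 16.8% in G34R, 44.8% and 13.1% in G34W, and 21.7% and 11.9% between the lines. Of the members called, 4 of 40 lost the call in at least 1 alternative in G34R, 4 of 39 in G34W and 8 of 24 between the lines.

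Signs turned in the following cases, and the cause was not tested. With median-ratio scaling, AT2G41480 (-0.0297) and AT3G28200 (-0.0170) turned in G34R, AT5G51890 (-0.0531) and AT5G64100 (-0.0517) in G34W, and AT4G33420 (-0.0155), AT5G06720 (-0.0369), AT5G58390 (-0.00306) and AT5G64110 (-0.0328) between the lines. HTR5 turned to -0.0319 in G34R and -0.0327 in G34W. With quantile normalization AT2G41480 was at -0.102 and the shoot genes LHCB5 and PSBO1 at 0.0415 and 0.0133 in G34R, AT5G40150 at -0.0146 in G34W and AT5G64110 at -0.0299 between the lines. With a pseudocount of 0.1 TPM AT5G06720 was at -0.0539 between the lines. Leaving out 1 library at a time put AT5G40150 at -0.206 to 0.0656 in G34R and, between the lines, AT4G11290 at -0.0783 to 0.0235, AT5G06720 at -0.133 to 0.230, AT5G58390 at -0.0443 to 0.176 and AT5G64110 at -0.0416 to 0.139. The 16 members under 1 TPM rest on few reads. Without the filter 14 of them could be tested, and 6 were called higher and 1 lower in G34R, 4 higher and 1 lower in G34W, and 1 lower in G34W than in G34R. In that fit 28.5% of all genes were higher and 13.5% lower in G34R, and 36.0% higher and 10.8% lower in G34W. Between the lines 9.18% of all genes were lower in G34W.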
